A study of Rattus norvegicus with 18 samples.

Results

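The late step of confluent vehicle culture was examined in the rat line WB-F344, stem-like epithelial cells of liver origin, by comparing cultures kept for 72 h in 0.1% DMSO with cultures kept for 24 h. The arrays were chosen by their labels alone: 3 arrays of DMSO at 72 h and 3 of DMSO at 24 h, 6 of the 18 arrays of the series. Cells were confluent, at passages 14 to 16, when the vehicle or 100 nM PCB126, a dioxin-like polychlorinated biphenyl, was added, and each group was sampled at 6, 24 or 72 h. Apart from the compound, the labels give both treatments the same line, passages and dishes. Total RNA was hybridised to an Affymetrix rat exon array, 1 array per sample, and the values are on the log2 scale, so a difference of 1 is a 2-fold difference. The labels call the 3 samples of a group independent repeats and do not say whether they came from separate thaws, so the tests weigh differences against the spread between samples of a group, pooled over the 6 groups, which may be technical. The series design pairs each PCB126 group with the DMSO group of its own time, and the step between times in the vehicle shows what changed in these cultures without the compound.

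A confluent epithelial culture keeps its neighbours in contact, slows its growth and goes on secreting matrix. When amino acids run short or the endoplasmic reticulum is stressed, the kinases of the integrated stress response favour translation of the transcription factor ATF4, which drives genes of amino acid uptake, serine and one-carbon metabolism and tRNA charging. Interferon-stimulated genes answer type I interferon through factors that include STAT2 and IRF9, and hepatic cells secrete acute phase proteins, chemokines and matrix proteins whose output changes with cell state. The labels do not say whether medium was renewed between 24 h and 72 h.

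Of the 16988 genes tested, 66 were called at an adjusted p under 0.05 (limma, Benjamini-Hochberg over all genes), 15 higher at 72 h and 51 lower, which is 0.389% of genes in either direction, 0.0883% for higher and 0.3% for lower. The 3 values at 72 h lay wholly on 1 side of the 3 values at 24 h in all 66, while over all genes the 72 h values lay wholly above the 24 h values in 5.24% and wholly below in 13.5%. At an unadjusted p under 0.05, 3.29% of genes were higher and 8.16% lower. Of the called genes, 7 were at least 2-fold higher and 12 at least 2-fold lower. The probe sets of the called genes mostly moved with the gene: 213 of 217 probe sets of the higher genes were higher at 72 h and 994 of 1045 of the lower genes were lower, against 41.2% higher and 58.8% lower over all probe sets of genes. A gene value is the median of these same probe sets and the genes were picked on it, so these counts are a description and no independent check. The number of calls depends on the arrays in the fit: with the arrays of the compared groups only it was 10, 6 higher and 4 lower, and with the DMSO arrays only 23, 8 higher and 15 lower. Of the 66, 9 and 20 stayed called in these fits. The split of higher against lower also depends on the scaling between arrays. The median difference over all genes was -0.045. The arrays' median gene level was 6.42 to 6.45 at 24 h and 6.32 to 6.35 at 72 h. Centring each array on its median gene level gave 73 calls, 35 higher and 38 lower. It moved the median difference over all genes past 0, to 0.053. At an unadjusted p under 0.05, 1186 genes were then higher and 750 lower (limma). Quantile normalisation of the gene values gave 76 calls, 31 higher and 45 lower, with a median difference of -0.001. After centring and after quantile normalisation, 52 and 55 of the 66 stayed called. Leaving out 1 array at a time gave 17, 13 and 36 calls without replicate 1, 2 and 3 at 24 h and 22, 61 and 23 without replicate 1, 2 and 3 at 72 h. The calls that held in all 6 cases were 13, the higher genes Lcp1, Clic5, Mybpc1 and Thbs2 and the lower genes Lbp, Aldoc, Cxcl13, Hpd, Adamts1, Itgb5, Rps6ka2, Gfra1 and Tmem106a. At the other end, 2 of the higher and 16 of the lower genes were lost in each of the 6 cases, among them Bcat1, Cars1, Hyal1, Gda and Mx2. In bulk RNA, fewer cells of a type and less RNA per cell cannot be told apart.

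**Figure D1:**
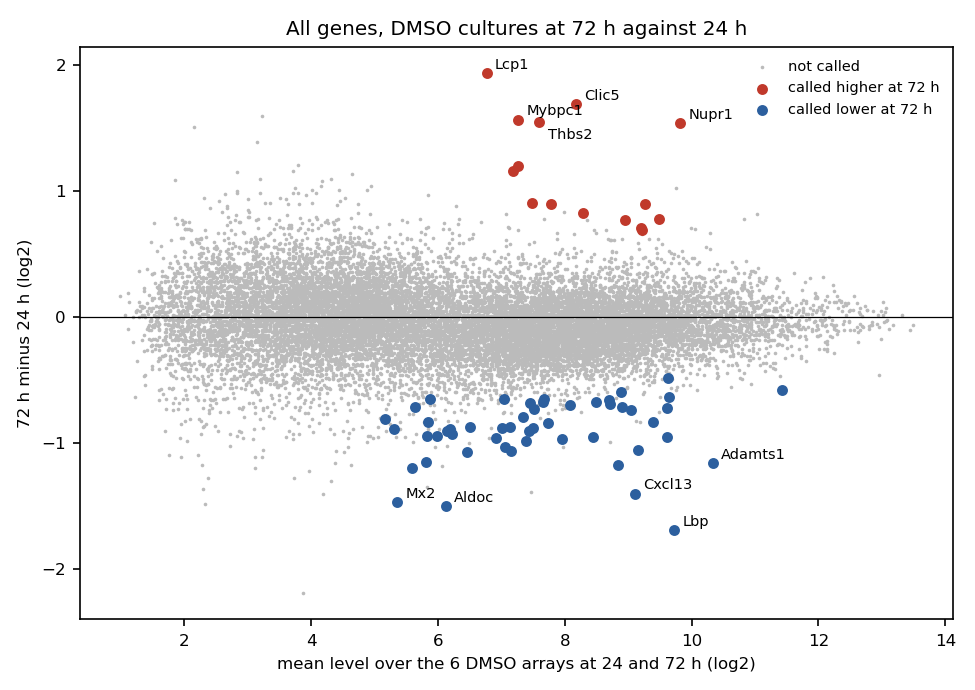
Difference between DMSO cultures at 72 h and 24 h (log2, vertical axis) against the mean level over the 6 arrays (log2, horizontal axis) for the 16988 genes, each a point. The 15 genes called higher lie between 0.69 and 1.94 and the 51 called lower between -1.69 and -0.48.

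The markers of the cell line were checked first. Of the 7 liver epithelial and progenitor markers measured, 6 lay above the median level of all probe sets (4.10), while Epcam, listed as Tacstd1, lay below at 2.29 and 2.36. That level is low for a gene, since most probe sets carry no symbol. Krt18 and Cdh1 passed it at the 30.2 and 31.1 percentiles among genes, and Krt8, Krt19 and Sox9 at 66.4, 53.3 and 64. Hepatocyte markers lay above that level for 2 of 7, Cyp2e1 being at 10.68 and 10.90 and albumin at 3.74 and 3.43 at 24 h and 72 h. Mesenchymal and stellate markers lay above it for 5 of 7, with vimentin at 12.26 and 11.99. Endothelial markers did so for 4 of 4, from the 27.5 percentile among genes (Cdh5) to the 67.8 (Tek), and blood markers for 2 of 6. None of these markers was called between 24 h and 72 h. The labels give the line as epithelial and stem-like, and some epithelial and some mesenchymal markers lay above 4.10 in every array of the comparison. On the DMSO arrays at 24 h and 72 h the spread of relative log expression (interquartile range) was 0.29 to 0.368.

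Among the 15 rises, Lcp1 had the largest. Lcp1 encodes L-plastin, an actin-bundling protein best known from blood cells. Its values were 5.73, 6.05 and 5.60 at 24 h and 7.75, 7.72 and 7.74 at 72 h, where the SD of the 3 arrays was 0.01. The groups did not overlap, as in all 66 called genes. The difference was 1.94 ± 0.237 (SE, 3.84-fold, adjusted p = 0.00121), and the mean at 6 h had been 5.18. Clic5, a member of the chloride intracellular channel family found with the cortical cytoskeleton, was at 7.18, 7.47 and 7.35 at 24 h and at 9.13, 8.70 and 9.25 at 72 h. It rose by 1.69 ± 0.177 (3.22-fold, adjusted p = 0.000476). Mybpc1, a myosin-binding protein C of slow muscle, went from 6.57, 6.37 and 6.53 to 8.09, 8.06 and 8.02, a rise of 1.57 ± 0.173 (adjusted p = 0.000545). Thbs2 encodes thrombospondin 2, a matricellular protein that limits blood vessel growth. It was at 6.87, 6.83 and 6.78 at 24 h and at 8.27, 8.72 and 8.13 at 72 h, a rise of 1.55 ± 0.179 (adjusted p = 0.000699), and it was the single member of 34 measured matrix glycoproteins to be called higher. Plppr1, listed as Prg-3 and related to lipid phosphate phosphatases of neurons, rose by 1.20 ± 0.202. Pnoc, the precursor of the neuropeptide nociceptin, rose by 0.91 ± 0.178, and Angpt2, a ligand of the Tie2 receptor Tek, by 0.83 ± 0.139. Dusp1, a phosphatase that turns off MAP kinases, rose by 0.78 ± 0.118 (adjusted p = 0.00667) and Cdc42ep2, an effector of Cdc42, by 0.69 ± 0.102. Dusp1 was the only called member of the immediate early list (23 measured), in which Egr1 and Nr4a1 had values of -0.66 and -0.59 (adjusted p = 0.102 and 0.152).

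**Figure D2:**
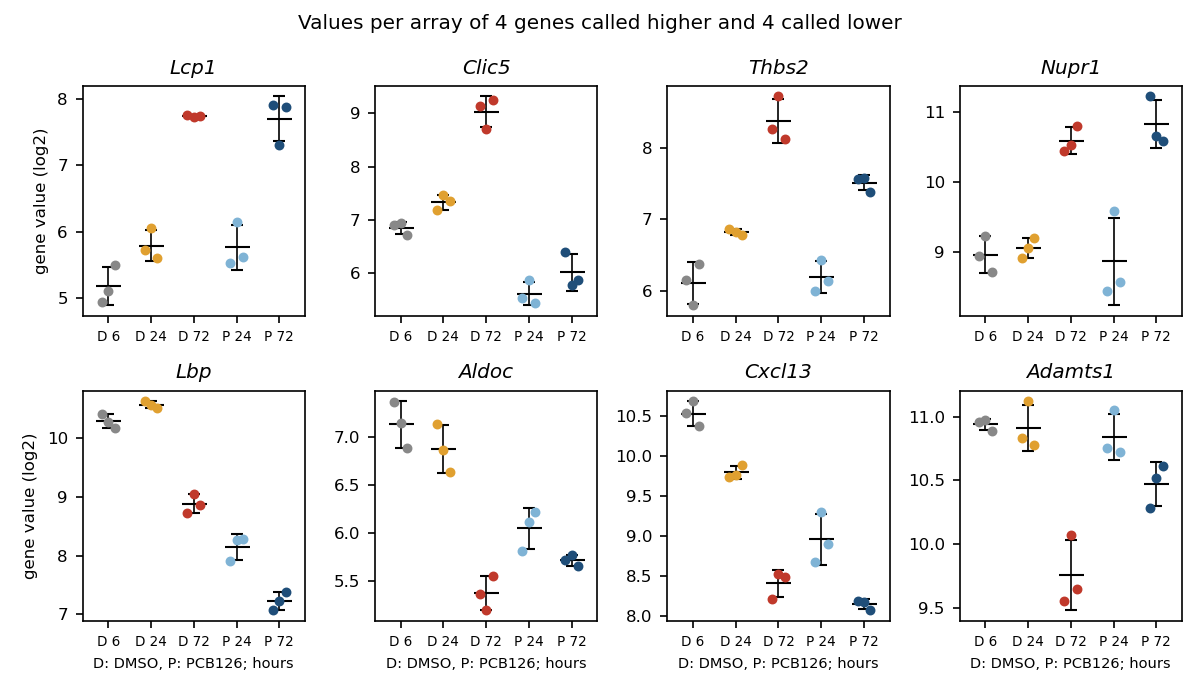
Gene values (log2) of 4 genes called higher and 4 called lower, by group and hours, with each array as a point and the mean ± SD (n = 3) as a bar. The DMSO values at 72 h lie apart from those at 24 h in all 8 genes, with Lcp1 at 7.72 to 7.75 and Lbp at 8.73 to 9.05.

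A further 6 of the 15 rises, grouped here after their values were seen, belong to amino acid metabolism, tRNA charging or the ATF4 response. Nupr1, a small chromatin-associated stress protein and an ATF4 target, was at 8.91, 9.06 and 9.19 at 24 h and at 10.44, 10.53 and 10.80 at 72 h, a rise of 1.54 ± 0.249 (2.90-fold, adjusted p = 0.011). Mthfd2, the mitochondrial folate enzyme that carries one-carbon units from serine, went from 6.72, 6.51 and 6.56 to 7.75, 7.58 and 7.95 and rose by 1.16 ± 0.189 (adjusted p = 0.011). Shmt2, the mitochondrial serine hydroxymethyltransferase that feeds it, was at 8.63, 8.54 and 8.51 and then at 9.25, 9.18 and 9.58, a rise of 0.77 ± 0.148 (adjusted p = 0.0312). Bcat1, which transaminates branched-chain amino acids, rose by 0.90 ± 0.175 (adjusted p = 0.0325). Cars1, the cysteinyl-tRNA synthetase listed as Cars, rose by 0.90 ± 0.179 and Mars1, the methionyl-tRNA synthetase listed as Mars, by 0.71 ± 0.136 (adjusted p = 0.0376 and 0.0319). None of these 6 overlapped between the times, as in all 66 called genes, while 5.24% of all genes lay wholly above. None of the 6 genes held in all 6 fits without 1 array, Nupr1 and Mthfd2 being lost in 3 of them.

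Across the 28 measured genes of the ATF4 list, 3 were called higher (Nupr1, Mthfd2 and Shmt2) and 0 lower, 14 had an unadjusted p under 0.05 in the higher direction and 0 in the lower, and the median difference was 0.33 against -0.04 over all genes. Of the members not called, Atf4 itself had 1.03 ± 0.223 (adjusted p = 0.0637), Psat1 of serine synthesis 0.82 ± 0.179 (0.0684), the amino acid transporter Slc7a5 0.78 ± 0.177 (0.0759), and Phgdh, the first enzyme of serine synthesis, 0.66 ± 0.155 (0.0821). Asns, asparagine synthetase, had 0.82 ± 0.252 (adjusted p = 0.188). Ddit3, the stress factor CHOP, had the lowest value of the list at -0.19. The number called depends on the arrays and the scaling: it was 0 without replicate 2 at 24 h or without replicate 3 at 72 h, 1 without replicate 1 at 24 h or at 72 h, and 7 after centring, while the number of members with an unadjusted p under 0.05 was 13 to 15 in the fits without 1 array. The cytosolic aminoacyl-tRNA synthetases, a list added after values had been seen, had 2 of 18 called and 8 with an unadjusted p under 0.05, all higher, with a median of 0.25. None of them was called with the compared groups only, with the DMSO arrays only or in the fits without 1 array, except 1 without replicate 2 at 72 h (limma, with 6 to 9 at an unadjusted p under 0.05). The mitochondrial synthetases had none called of 16 and a median of -0.08. Of the ER stress list, driven by XBP1 and ATF6, none of 22 was called, and Herpud1 had 0.47 (adjusted p = 0.17).

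The promoters of the called genes in this set are shown because ATF4 binds the amino acid response element. The windows run from 250 bases before to 50 after the start site, in RefSeq's GRCr8 table, which has 33469 windows, and were searched on both strands for the amino acid response letters TGATGNAA. Of the 15 genes called higher, 10 had a window, and 3 of these held a match (Mthfd2, Shmt2 and Bcat1 are not among them), Nupr1 55 bases before its start, Mars1 17 before and Cars1 17 after, against 3.98% of all windows. Of 26 ATF4 list genes with a window 4 held one, and of these only Nupr1 was called. The others were Chac1, Trib3 and Pycr1, with 0.47, 0.27 and 0.02 (limma, adjusted p = 0.219, 0.721 and 0.986). Capitals mark the match, which is on the reverse strand. The windows are Nupr1 at chr1:190645852-190646151, minus strand, Mars1 at chr7:65023704-65024003, minus strand and Cars1 at chr1:208225320-208225619, minus strand.
Nupr1: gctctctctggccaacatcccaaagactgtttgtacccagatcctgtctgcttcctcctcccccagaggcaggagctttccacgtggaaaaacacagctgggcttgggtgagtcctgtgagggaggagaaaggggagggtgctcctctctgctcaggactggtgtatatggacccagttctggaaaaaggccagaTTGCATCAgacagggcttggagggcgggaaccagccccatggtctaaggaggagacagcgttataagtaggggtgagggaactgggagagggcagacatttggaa
Mars1: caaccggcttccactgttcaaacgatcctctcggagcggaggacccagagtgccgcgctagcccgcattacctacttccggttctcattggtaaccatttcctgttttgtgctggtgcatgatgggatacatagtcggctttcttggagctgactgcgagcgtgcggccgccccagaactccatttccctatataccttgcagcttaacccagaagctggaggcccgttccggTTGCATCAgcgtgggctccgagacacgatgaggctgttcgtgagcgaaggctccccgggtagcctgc
Cars1: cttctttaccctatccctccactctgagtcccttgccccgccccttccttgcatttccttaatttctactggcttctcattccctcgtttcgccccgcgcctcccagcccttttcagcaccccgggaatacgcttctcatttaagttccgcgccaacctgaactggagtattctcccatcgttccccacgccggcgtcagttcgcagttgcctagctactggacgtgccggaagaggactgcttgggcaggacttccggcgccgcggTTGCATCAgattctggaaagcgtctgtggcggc
All 3 hold the same 8 letters, TTGCATCA. A match is a description of these letters and shows no binding. Other motifs were searched in the same way. Of the 10 genes called higher with a window, TTTGAA (the CHR of mitotic genes) matched 3, CCAAT 4 and the E-box CACGTG 2. These letters matched 18.3%, 37.5% and 6.42% of all windows. Each of the remaining motifs matched 0 or 1 of the 10.

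**Figure D3:**
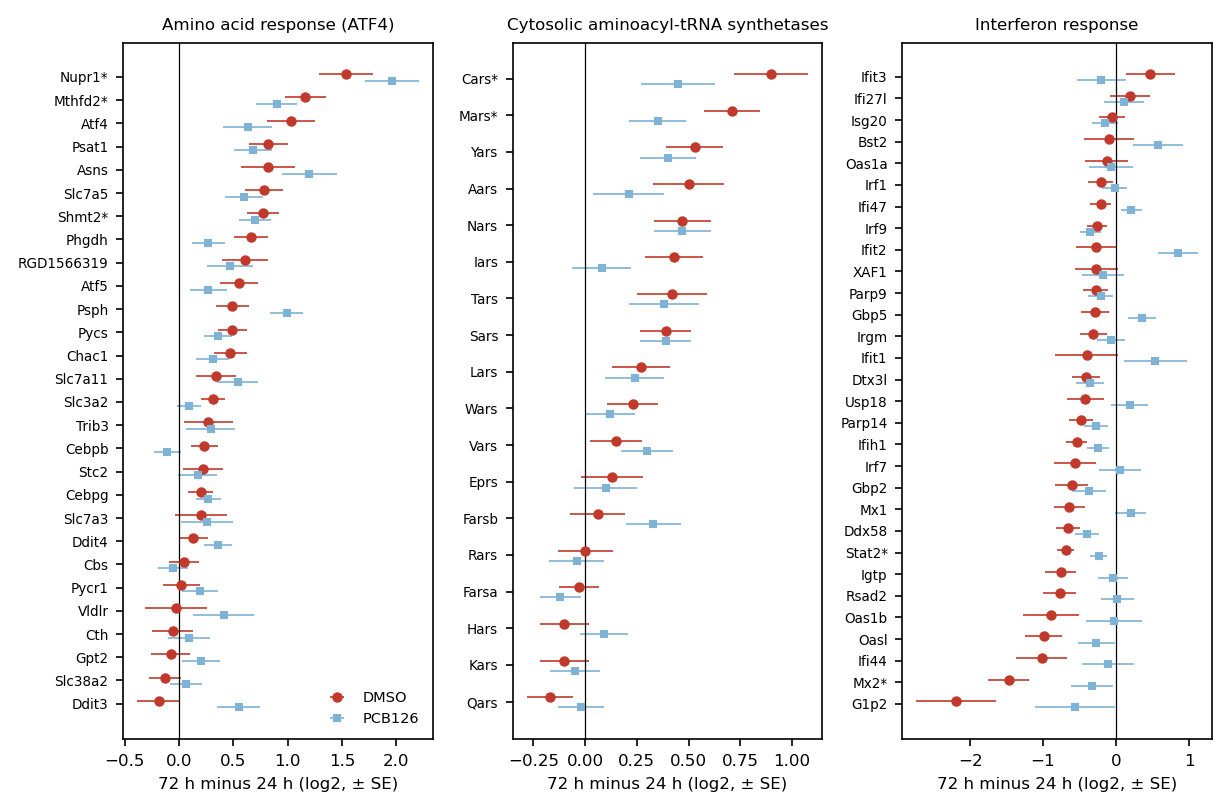
Difference of each measured member of 3 lists between 72 h and 24 h (log2, ± SE) in DMSO (circles) and in PCB126 (squares), with an asterisk on genes called in DMSO. In the ATF4 list 23 of 28 DMSO values are above 0 and in the interferon list 28 of 30 are below it.

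Of the 51 falls, Lbp, which encodes the lipopolysaccharide-binding protein of the acute phase, was the largest. Its values were 10.63, 10.57 and 10.52 at 24 h and 8.73, 9.05 and 8.87 at 72 h, a fall of 1.69 ± 0.132 on the log2 scale (3.23-fold, adjusted p = 1.48e-05), and at 6 h it had been at 10.29. Leaving out any 1 array kept its adjusted p at or below 0.000284. Itih4, an inter-alpha-trypsin inhibitor chain, fell by 0.81 ± 0.136 (adjusted p = 0.0122). These were the 2 called members of the complement and acute phase list (22 measured, median -0.26). Of the others Cfb, complement factor B, had -0.96 (adjusted p = 0.0739) and Masp1, a protease of the lectin pathway, had -0.83 (0.126), while Hp, haptoglobin, had 0.69 (0.155). Of the chemokines, Cxcl13, which draws B cells, was at 9.74, 9.76 and 9.89 at 24 h and at 8.21, 8.52 and 8.48 at 72 h, and fell by 1.40 ± 0.156 (adjusted p = 0.000545). Its mean had been 10.53 at 6 h. Cxcl12, the ligand of CXCR4, went from 7.71, 7.49 and 7.53 to 6.68, 6.64 and 6.32 and fell by 1.03 ± 0.172 (adjusted p = 0.0122). These were the called members of 19 measured. Of the inflammation list none of 23 was called, and Nfkbiz, a regulator of NF-kB, had -0.62 (adjusted p = 0.0819).

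Interferon-stimulated genes had the lowest median of the 43 lists. Mx2, an interferon-induced GTPase, was at 6.22, 6.01 and 6.05 at 24 h and at 4.77, 4.26 and 4.84 at 72 h and fell by 1.47 ± 0.283 (adjusted p = 0.0319). Stat2, the signal transducer of type I interferon, was at 9.11, 9.08 and 8.99 and then at 8.42, 8.44 and 8.25 and fell by 0.69 ± 0.113 (adjusted p = 0.011). Mx2 was not called in any of the 6 fits without 1 array (adjusted p up to 0.153) and Stat2 was not called in 3 of them. Without replicate 1 or 2 at 24 h, or without replicate 3 at 72 h, 0 of the list were called. Across the 30 members measured, 14 had an unadjusted p under 0.05 in the lower direction and 0 in the higher, and 28 lay below 0. The median was -0.41, or -0.32 after centring, when the median over all genes was 0.05. Isg15, a ubiquitin-like protein listed as G1p2 and resting on 3 probe sets, had the largest difference, from 5.17, 4.65 and 5.12 to 1.36, 3.24 and 3.76, that is -2.19 ± 0.546 (adjusted p = 0.102), with replicate 1 at 72 h far below the other two. Ifi44 had -1.02, Oasl -0.99, Rsad2, the antiviral enzyme viperin, -0.77 and Igtp, an interferon-gamma-induced GTPase, -0.76 (adjusted p = 0.265, 0.113, 0.171 and 0.139). Members with near relatives (Mx1 and Mx2, Oas1a and Oas1b) can share probes. Antigen presentation genes, also interferon targets, had none called of 16 and a median of 0.05. Blood markers averaged 3.67 to 3.71 per array at 24 h and 3.52 to 3.75 at 72 h, and their part in these values was not tested.

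Promoters of 2 list members are shown because complexes with STAT2 and IRF9 bind the interferon-stimulated response element. Of 24 list genes with a window, 17 held the element's letters, GAAA and GAAA with 2 bases between them on either strand, against 3.92% of all 33469 windows. None of these 17 was called. Igtp and Rsad2, the 2 shown, were chosen after their values were seen and had -0.76 and -0.77. Other holders of the letters ranged from Ifi44 at -1.02 to Ifit3 at 0.47, with Ifi27 at 0.19, Isg20 at -0.05 and Bst2 at -0.10. Of 41 genes called lower with a window 1 held the letters. Capitals mark the match in Igtp at chr10:42874797-42875096, plus strand and Rsad2 at chr6:48788071-48788370, minus strand, 103 and 147 bases before the start.
Igtp: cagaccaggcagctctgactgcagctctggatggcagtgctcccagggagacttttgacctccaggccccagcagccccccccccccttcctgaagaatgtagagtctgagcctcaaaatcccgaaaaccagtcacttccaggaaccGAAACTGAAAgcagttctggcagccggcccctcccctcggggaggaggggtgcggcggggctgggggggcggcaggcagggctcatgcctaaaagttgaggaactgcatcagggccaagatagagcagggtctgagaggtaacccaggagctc
Rsad2: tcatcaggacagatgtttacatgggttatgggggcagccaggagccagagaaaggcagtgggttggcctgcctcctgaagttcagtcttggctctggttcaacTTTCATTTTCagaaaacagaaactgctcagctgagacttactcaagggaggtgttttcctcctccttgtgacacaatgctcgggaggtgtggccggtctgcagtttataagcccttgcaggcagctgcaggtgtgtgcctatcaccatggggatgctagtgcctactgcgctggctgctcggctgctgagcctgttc
The match is on the forward strand in Igtp and on the reverse strand in Rsad2.

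Matrix proteins, their proteases and adhesion receptors were among the falls. Adamts1, a secreted protease of proteoglycans, was at 10.83, 11.12 and 10.78 at 24 h and at 9.55, 10.07 and 9.65 at 72 h and fell by 1.16 ± 0.148 (adjusted p = 0.00153). Adam12, a membrane-bound relative, fell by 0.88 ± 0.176 (0.0376). Nid1, the basement membrane linker nidogen, went from 8.37, 8.62 and 8.33 to 7.50, 7.62 and 7.28 and fell by 0.97 ± 0.155 (adjusted p = 0.011), having been at 9.26 at 6 h. Fbln2, fibulin 2, fell by 0.74 ± 0.144, and Col14a1, a collagen that sits on fibrils, fell by 0.87 ± 0.167 (adjusted p = 0.0335 and 0.0319). Itgb5, the integrin chain that with the alpha V chain binds vitronectin, was at 9.60, 9.97 and 9.49 and then at 8.56, 8.85 and 8.51, a fall of 1.05 ± 0.148 (adjusted p = 0.00382). Pcolce, which speeds the cleavage of procollagen, fell by 0.58 ± 0.119 and Ecm1, a secreted matrix glycoprotein, by 0.72 ± 0.141 (adjusted p = 0.0472 and 0.0356). Hyal1, a hyaluronidase, fell by 1.07 ± 0.197, Sulf2, which trims heparan sulfate, by 0.70 ± 0.133, and Slit3, a secreted guidance ligand, by 0.83 ± 0.166.

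By list, collagens had 1 called lower of 22 with a median of -0.23, and 8 with an unadjusted p under 0.05 in the lower direction against 1 in the higher, among them Col1a2 at -0.55 (adjusted p = 0.158). After centring these were 4 and 4 with a median of -0.14, when the median over all genes was 0.05. After quantile normalisation they were 4 and 2 with a median of -0.16. Collagen processing had 1 called of 21 and a median of -0.16, with Plod2, a lysyl hydroxylase, at -0.61 and Lox, the crosslinking lysyl oxidase, at -0.39 (adjusted p = 0.0714 and 0.201). The Pcolce call was lost after centring and after quantile normalisation, with values of -0.48 and -0.57, and the list had 0 called in those fits, with the compared groups only, with the DMSO arrays only and without 1 array, except 2 without replicate 2 at 72 h (limma, with 5 to 9 lower at an unadjusted p under 0.05). Matrix glycoproteins had 1 called higher and 2 lower of 34, with a median of -0.13 (-0.04 after centring). Matrix proteases and inhibitors had 2 called lower of 28, with a median of -0.00 (0.09 after centring). Of these 28, 14 lay above 0 and 14 below, so the protease list as a whole did not lean lower. Mesenchymal and stellate markers, averaged over the 7 measured, were 8.14 to 8.27 per array at 24 h and 7.97 to 8.08 at 72 h, and none was called. Their part in the matrix values was not tested.

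Metabolic and signalling genes made up further falls. Aldoc, the brain-type aldolase of glycolysis, was at 7.13, 6.86 and 6.63 at 24 h and at 5.37, 5.20 and 5.55 at 72 h and fell by 1.50 ± 0.192 (2.83-fold, adjusted p = 0.00153), the only call among 29 glycolysis and hypoxia genes. Hpd, the dioxygenase of tyrosine breakdown, was at 7.81, 7.51 and 7.74 and then at 6.58, 6.59 and 6.72, a fall of 1.06 ± 0.140 (adjusted p = 0.0021). Elovl6, which lengthens palmitate, fell by 0.59 ± 0.101 (adjusted p = 0.0144), and it was the 1 call of 19 fatty acid synthesis genes, in which 7 had an unadjusted p under 0.05 in the lower direction and 1 in the higher (3 and 3 after centring). The Elovl6 call was lost after centring, with a value of -0.49. Of 19 sterol synthesis and uptake genes none was called. Dhcr7, the last enzyme of cholesterol synthesis, had -0.50 (adjusted p = 0.0963). Gstm1, a glutathione transferase whose close relatives can share its probes, fell by 0.63 ± 0.121 (0.031). Gda, guanine deaminase, fell by 1.15 ± 0.217, Bace2, an aspartic protease, by 1.17 ± 0.201, and Gas7, named for growth arrest, by 1.20 ± 0.204 (adjusted p = 0.0293, 0.0144 and 0.0135). Rps6ka2, the ribosomal S6 kinase RSK3, was at 8.91, 9.02 and 8.81 at 24 h and at 8.03, 7.96 and 7.91 at 72 h and fell by 0.95 ± 0.120 (adjusted p = 0.00153). Gfra1, the GDNF co-receptor, fell by 0.93 ± 0.129. Aldh3a1, an aldehyde dehydrogenase of the aryl hydrocarbon receptor battery, fell by 0.87 ± 0.142 (adjusted p = 0.011). Cyp1a1, the classic target of that receptor, was at 4.15 and 4.11 in the vehicle, with a difference of -0.03 (adjusted p = 0.979). These Cyp1a1 values lay near the median level of all probe sets (4.10), which is low for a gene and leaves little room for a fall.

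The other falls, named here after their values were seen, ran from cell surface proteins to signalling enzymes. Ppp2r2b, a regulatory subunit of protein phosphatase 2A, was at 9.99, 10.10 and 10.16 at 24 h and at 9.01, 9.21 and 9.18 at 72 h and fell by 0.95 ± 0.166 (adjusted p = 0.0163). Alpk1, a kinase that senses bacterial sugar nucleotides, went from 7.83, 8.08 and 7.73 to 7.07, 6.93 and 6.72 and fell by 0.98 ± 0.161 (0.0113). The groups were apart in both, as in all 66 called genes. Jak3, the kinase of the common gamma chain cytokine receptors, fell by 0.67 ± 0.134, Samhd1, which degrades deoxynucleotides, by 0.65 ± 0.134, and Pde4b, a cyclic AMP phosphodiesterase, by 0.65 ± 0.125. Among surface proteins Mme, the peptidase neprilysin, fell by 0.83 ± 0.166, Adgrg6, an adhesion G protein-coupled receptor listed as Gpr126, by 0.84 ± 0.148, and Sema6a, a membrane semaphorin, by 0.88 ± 0.170. Atp2b4, a calcium pump of the plasma membrane, fell by 0.89 ± 0.161 and Slc41a2, a magnesium transporter, by 0.94 ± 0.150. Bmper, a secreted regulator of BMP signalling, had the smallest of the called falls, from 9.88, 9.92 and 9.82 to 9.45, 9.30 and 9.42, that is -0.48 ± 0.100 (adjusted p = 0.0472). Jak3, Samhd1, Pde4b, Mme, Sema6a and Bmper were not called in any of the 6 fits without 1 array. The other genes named in this paragraph lost their call in 3 to 5 of these fits. Of the 29 probe sets of Pde4b, 9 were higher at 72 h.

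**Figure D4:**
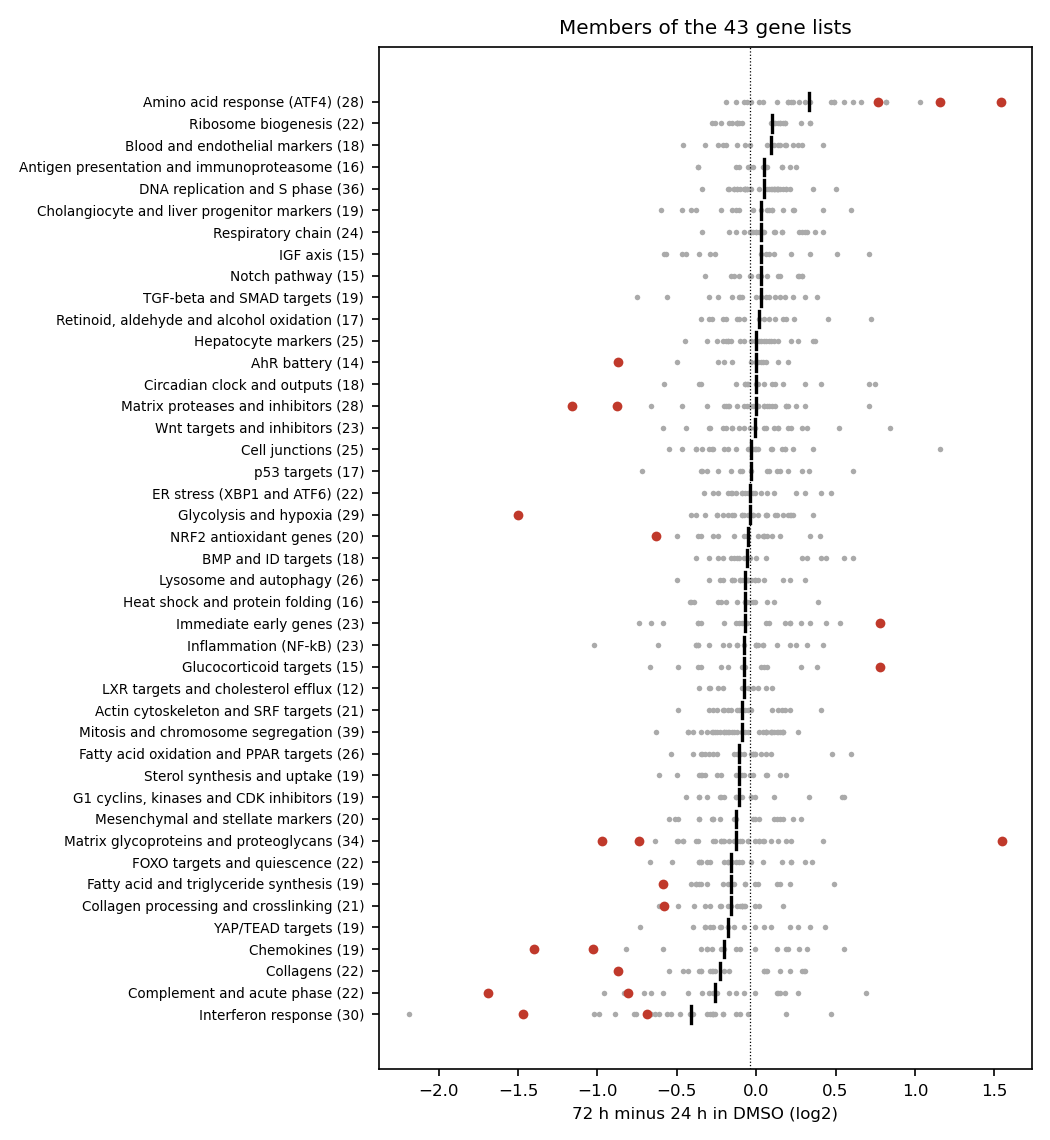
Difference between 72 h and 24 h in DMSO (log2) for every measured member of 43 gene lists, ordered by the list median (black bar), with called genes as large points, the number measured in parentheses and the dotted line at the median of all genes. The ATF4 list is at the top with a median of 0.33 and the interferon list at the bottom with -0.41.

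Of the 898 list genes measured, 21 were called, against 0.389% over all genes, in lists chosen with earlier results of these data known. At the share over all genes most lists of this size would hold no call, so a list with none called says little about its genes. The proliferation lists held none: DNA replication and S phase had 0 of 36 genes called and 0 with an unadjusted p under 0.05 in either direction, with a median of 0.05, and mitosis had 0 of 39 called with Cdc25b at -0.63 (adjusted p = 0.121). Of the G1 regulators, Mycn had 0.55 and Ccnd2, cyclin D2, 0.54 (adjusted p = 0.094 and 0.0974). The p53, YAP/TEAD, TGF-beta, BMP, Notch and Wnt lists also had none called, among them Ltbp1 at -0.75 (adjusted p = 0.0722), Dlc1 at -0.73 (0.0865), Sfrp1 at -0.59 (0.0511), Axin2 at 0.52 (0.092) and Id4 at 0.61 (0.101). In the circadian list none of 18 was called. Ciart, a repressor of the clock listed as RGD1566380, had 0.71 (adjusted p = 0.0974), the output factor Hlf 0.75 (0.131), the nuclear receptor Nr1d1 0.41 (0.188) and Bmal1, listed as Arntl, -0.58 (0.278), while Per2 and Cry1 had -0.05 and -0.07. The other 12, which are Clock, Per1, Per3, Cry2, Dbp, Tef, Rora, Npas2, Nfil3, Csnk1e and the repressors Bhlhe40 and Bhlhe41, listed as Bhlhb2 and Bhlhb3, lay between -0.36 (Nfil3) and 0.31 (Bhlhe40). After centring, 2 Wnt genes and 1 circadian gene were called higher. An adjusted p above the threshold does not show that these genes did not differ. The median standard error of a difference was 0.183.

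The PCB126 cultures at 72 h and 24 h are other arrays, so their differences show whether the same genes moved in that interval with the compound present. Both comparisons come from 1 fit, which gives a gene the same standard error in each. Genes called in DMSO carry that standard error into their PCB126 p, so the counts by p below are not independent. With the PCB126 arrays of these times only, 0 genes were called (limma, with 1141 at an unadjusted p under 0.05). In the fit to all 18 arrays, 109 genes were called between these times with PCB126, 0.642% of those tested. At an unadjusted p under 0.05, 3.98% were higher and 6.87% lower. Without replicate 2 or 3 of PCB126 at 24 h the calls were 46 and 47, and without replicate 2 or 3 at 72 h they were 60 and 64. Of the 15 genes called higher in DMSO, all 15 were higher in PCB126, each with an unadjusted p under 0.05 and 9 of them called. Of the 51 called lower, 46 were lower, 32 of them with an unadjusted p under 0.05 and 13 called. The other 5 were Aldh3a1 (0.61), Itih4 (0.21), Rps6ka2 (0.13), Crip2 (0.09) and Gda (0.08). Gda was at 4.43 already at 24 h with PCB126 against 6.39 in DMSO, near the median level of all probe sets (4.10). Over all genes 58.9% of those higher and 62.8% of those lower in DMSO went the same way in PCB126. The median difference of the 15 was 0.91 in DMSO and 0.70 in PCB126, and of the 51 it was -0.88 and -0.46. The genes were chosen for their DMSO values, so these medians are a description and no test of a weaker step. Lcp1 was nearly equal in both, 1.94 and 1.93, as was Hpd, -1.06 and -1.06, and Nupr1 rose by 1.96 (adjusted p = 0.00159) with PCB126. The ATF4 list had 5 called higher of 28 with a median of 0.33 in PCB126, the same median as in DMSO. The interferon list had 0 called, 3 with an unadjusted p under 0.05 in the lower direction and a median of -0.09. Mx2 was at 4.48 already at 24 h with PCB126 against 6.09 in DMSO, and it was at 4.15 and 4.62 at 72 h. The widest relative log expression of the series was in replicates 1 and 2 of PCB126 at 72 h (0.461 and 0.475), and without that group the DMSO comparison had 106 calls, 64 of the 66 among them.

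The difference of the 2 steps was tested directly and was called in 4 genes, 0.0235% of those tested. Aldh3a1 was at 7.08, 6.94 and 6.78 at 24 h and at 6.00, 6.00 and 6.18 at 72 h in DMSO, and at 11.21, 11.40 and 11.48 and then at 11.93, 12.08 and 11.91 in PCB126. Its step was 1.48 ± 0.201 higher in PCB126 (adjusted p = 0.0211). Rps6ka2 fell in DMSO and stayed between 9.42 and 9.81 with PCB126, a difference of 1.08 ± 0.170 (adjusted p = 0.0404). Kitlg, the ligand of the receptor Kit, was at 11.44, 11.44 and 11.47 and then at 11.07, 11.28 and 11.16 in DMSO, and at 10.68, 10.61 and 10.38 and then at 9.16, 9.06 and 9.16 in PCB126, a difference of -1.14 ± 0.160 (adjusted p = 0.0211). Pgc, the precursor of the gastric protease progastricsin, was at 5.75 and 5.60 in DMSO and rose by 1.13 in PCB126, a difference of 1.28 ± 0.195 (adjusted p = 0.0396). Each of these 4 calls rests on single arrays: 0 genes were called without replicate 1 or 2 of DMSO at 24 h or at 72 h, replicate 1 or 2 of PCB126 at 24 h, or any replicate of PCB126 at 72 h (limma, with 827 to 1146 at an unadjusted p under 0.05). No step difference was called for Clic5 (-1.29, adjusted p = 0.188), Itih4 (1.02, 0.149), Mx2 (1.14, 0.673) or Gda (1.23, 0.381).

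**Figure D5:**
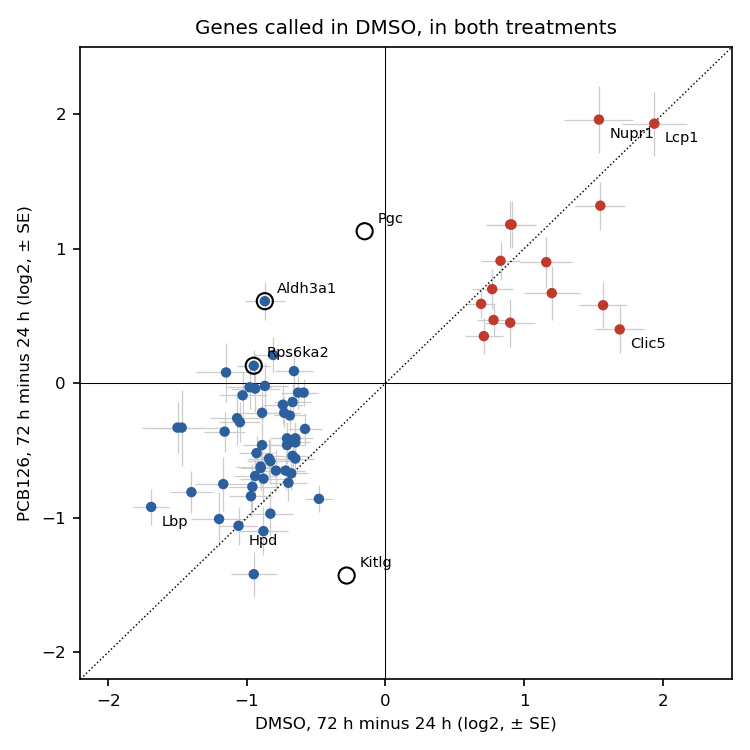
Difference between 72 h and 24 h (log2, ± SE) in DMSO (horizontal axis) and in PCB126 (vertical axis) for the 66 genes called in DMSO, with a dotted line where both are equal. Open rings mark the 4 genes whose steps were called different, of which Kitlg and Pgc were not called in DMSO.

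The interval before, from 6 h to 24 h in DMSO, had 0 genes called and 987 at an unadjusted p under 0.05 (limma). It shares the 24 h arrays, so the values are only set side by side. Lcp1, Mybpc1 and Thbs2 had 0.61, 0.75 and 0.71 from 6 h to 24 h before 1.94, 1.57 and 1.55 from 24 h to 72 h. Nupr1, Mthfd2 and Shmt2 had 0.09, -0.01 and -0.15 before 1.54, 1.16 and 0.77. Of the falls, Cxcl13 had -0.73, Nid1 -0.82, Itgb5 -0.70 and Fbln2 -0.69 in the earlier interval, while Adamts1 had -0.03, Cxcl12 -0.03, Stat2 -0.02 and Lbp 0.29.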

How the data were processed

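The authors deposited log2 values per probe set. Per the submitters' processing notes, the tools were Affymetrix Power Tools 1.12.0 and RMA; the array build and other settings are not given in the sources used here. It has 1044112 probe sets, and the platform annotation gives 1 symbol for 223110, several for 3523 and none for 817479. For each array, the probe sets that carry 1 symbol alone were summarised by their median, giving 16988 genes (median 10 probe sets, 657 with 1). RefSeq GRCr8 held 12954 symbols as current and 3977 as older ones, and 57 had no match. Genes without such a probe set were not analysed here. RMA compresses differences of dim probe sets, and 3 arrays per group limit the precision.

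A model with 1 mean for each of 6 groups was fitted to all 18 arrays with limma 3.58.1 in R 4.3.3 (12 residual and 3.89 prior degrees of freedom; two-sided moderated tests; Benjamini-Hochberg over all genes; called at an adjusted p under 0.05) and was tested on simulated data. The text names the 12 largest rises and falls, on at least 2 probe sets with groups that do not overlap, up to 4 called members per list and direction, up to 2 members of lists with none called, the clock genes, Cyp1a1 and Aldh3a1, and the called step differences; other names, such as Mars1, Cdc42ep2, Ecm1, Sulf2, Slit3, Gfra1 and uncalled members of lists, were chosen after their values were seen. The comparison, the 43 lists and the motifs were chosen with earlier results of these data known. Same-numbered DMSO arrays at 24 h and 72 h did not deviate together in every pair. After the data had been seen, a fit without the PCB126 72 h group was added. The fit was repeated with the replicate block, other gene values, filters, scalings, variance models and arrays.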

Additional observations from a re-analysis of the deposited data

Results flagged for a closer look

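The step from 24 h to 72 h differed between PCB126 and DMSO in 4 genes by the test of the difference itself (limma, adjusted over all genes). The step in PCB126 minus the step in DMSO was 1.48 for Aldh3a1, -1.14 for Kitlg, 1.28 for Pgc and 1.08 for Rps6ka2. Aldh3a1 and Rps6ka2 were also called lower at 72 h in DMSO, while Kitlg and Pgc were not called there. Leaving out 1 array at a time gave 0 to 4 such genes, with 4 only without replicate 3 of PCB126 at 24 h.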

How the results depend on the processing

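None of the 66 genes called in DMSO changed direction under the 18 alternatives, but most of these fits could not reverse a call. Leaving out or weighting arrays cannot do so where the groups do not overlap. A block, an intensity trend or a filter of genes keeps the group differences. Only the other gene values and the scalings could have reversed one. The number of calls was what moved. The DMSO comparison had 66 calls and gave 226 with the mean over probe sets, 129 with bright genes only, 135 with an intensity trend, 151 with array weights, 10 with the compared groups only, 23 with the DMSO arrays only, and 106 without the PCB126 72 h group, an alternative chosen after seeing the data. Without 1 array it gave 13 to 61. The 21 calls among list genes became 66, 37, 40 and 41 in the first 4 of these settings, 5 and 8 in the fits with fewer arrays, and 5 to 23 without 1 array. Of the 36 called genes that the naming rule picked, 9 and 15 stayed called in the fits with fewer arrays and 11 to 30 without 1 array. PCB126 had 109 calls and gave 182 with the mean over probe sets, 366 with array weights, 0 with the compared groups only (limma, with 1141 at an unadjusted p under 0.05) and 46 to 115 without 1 array. The difference of the steps had 4 calls and gave 8 with the mean over probe sets, 2 with bright probe sets only, 7 with centring, 7 with an intensity trend, 14 with array weights, 0 with the compared groups only (limma, with 838 at an unadjusted p under 0.05) and 0 to 4 without 1 array. Fits with fewer arrays have fewer residual degrees of freedom.

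Same-numbered DMSO arrays at 24 h and 72 h had deviations that correlated at 0.007, 0.162 and 0.126, and different-numbered ones at -0.146 to 0.024, so pairing was not shown in every pair. The replicate block gave 71 calls in DMSO (59 of the 66 among them), 104 in PCB126, 2 for the difference of the steps, 36 of the named genes and 29 of the list genes.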
